A study of Mus musculus with 10 samples.

Results

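The genes that encode the proteins of the cytosolic ribosome were examined on 10 single-colour microarrays of mouse muscle and mouse muscle cells. Genes were chosen by name. The rule took RefSeq symbols of Rpl or Rps with a number and at most a letter and an l after it. It also took the stalk genes Rplp0, Rplp1 and Rplp2 and the laminin receptor gene Rpsa. The arrays carried 81 such genes, 31 of the small and 50 of the large subunit, among 19748 genes named through a RefSeq accession. Rps3a1, Rpl22l1 and Rpl7l1 have names outside this rule and were not counted, and Rps23 had no probe. These 81 genes had 166 probes, and the brightest probe stood for a gene. In muscle, 79 were bright enough to test. The other 2, Rpl10l and Rpl39l, which in mouse are best known from testis, were not.

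The study asked what the stress kinase PERK does to gene expression in muscle. Fv2E-PERK is a PERK kinase domain fused to a domain that binds the small molecule AP20187, so that the drug pairs and activates it without protein misfolding. In the mice the human skeletal actin (hSA) promoter drives it in skeletal muscle, and in culture it was carried by C2C12, a mouse myoblast line that fuses into myotubes. Each of the 5 groups had 2 arrays, and 150 ng of RNA was labelled for each.

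Transgenic muscle treated with AP20187 came from hSA::Fv2E-PERK males injected with 1 ng/g and sampled after 12 h. Transgenic vehicle muscle came from such males injected with the carrier and sampled at the same time. Wild type muscle came from males without the transgene and is labelled untreated, so it differed from vehicle muscle both in the transgene and in the injection. All mice were C57BL/6J. The C2C12 cells of both culture groups carried Fv2E-PERK, were grown to myotubes in low serum for 3 days, and received 100 nM AP20187 or ethanol for 12 h. Age, the muscle sampled and whether each array was a separate animal or culture are not given in the labels, so p-values measure the spread between arrays, which may be technical.

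The ribosome reads messenger RNA with its small subunit and joins amino acids in its large subunit. Cells make its proteins in nearly equal numbers, and their messenger RNAs commonly begin with a cytosine followed by a run of pyrimidines, the 5′ terminal oligopyrimidine tract through which growth signals set how often these messages are translated. Muscle is unusual in having Rpl3l, a paralog of Rpl3 that is made in striated muscle.

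The starts of 6 genes are shown here because that tract is the sequence feature the family is known for. All of them but Rpl3l hold it at the listed start, unlike most of the family. Rpl3l is included because it stands apart from the others in the measurements that follow. Any part of the tract in that was not tested. Each line holds 25 bases before and 25 bases from the RefSeq start (GRCm38.p6), in the direction of transcription, and capitals mark the pyrimidine run that begins with C at the start.
Rps6 (chr4:86857343-86857392, minus strand): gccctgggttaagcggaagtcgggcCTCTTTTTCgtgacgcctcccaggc
Rpl28 (chr7:4792940-4792989, plus strand): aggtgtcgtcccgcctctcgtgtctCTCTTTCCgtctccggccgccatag
Rpl35 (chr2:39005107-39005156, minus strand): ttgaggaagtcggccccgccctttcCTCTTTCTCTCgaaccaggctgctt
Rps10 (chr17:27635220-27635269, minus strand): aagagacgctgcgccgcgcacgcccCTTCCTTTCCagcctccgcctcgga
Rplp2 (chr7:141447626-141447675, plus strand): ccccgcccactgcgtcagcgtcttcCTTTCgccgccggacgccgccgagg
Rpl3l (chr17:24727801-24727850, plus strand): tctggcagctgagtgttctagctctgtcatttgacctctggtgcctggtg

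The set of start sequences at hand held 60 of the 81 genes. A cytosine followed by at least 4 pyrimidines stood exactly at that start, on the transcribed strand's sense sequence, in 13 of the 60 (21.7%), against 813 of all 27025 genes with a listed start (3.01%). The listed start of Rpl3l, the first of 2, had no such run. In transgenic vehicle muscle over wild type muscle, the median log2 change was 1.01 for tested genes with the run and 0.93 for those without. The motif CTCTTTC, on either strand of the window from 250 bases before to 50 bases after the start, was in 26.7% of the ribosomal protein genes and in 9.28% of all genes. CGGAAG, the core that ETS-family factors bind, was in 70% of them and in 18.8% of all genes. These matches describe the letters only, and a start listed a few bases off hides the run.

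Arrays were scaled to their own 75th percentile, and levels are log2 signal over that percentile. Between 41.0% and 53.1% of spots were well above background on an array, and no spot was saturated. Replicate arrays correlated at 0.983 to 0.992 over all genes. The 13 mature muscle markers examined were all higher in transgenic vehicle muscle than in C2C12 vehicle cells (limma, adjusted p under 0.05), and all 7 proliferation markers were lower. Wild type arrays were scanned in a session of their own, the transgenic arrays in another and the C2C12 arrays in one more. The headers give each of the 2 transgenic vehicle arrays the slide and position of a C2C12 array of another session, and their signals differ. On the C2C12 AP20187 arrays 2.00% and 2.37% of spots carried an outlier flag, against 0.16% to 0.376% elsewhere, which left 28 and 30 of the 81 genes without a value there.

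Ribosomal protein messenger RNAs were higher in transgenic vehicle muscle than in wild type muscle, nearly without exception. Of the 79 genes tested, 77 rose and 0 fell (limma, adjusted p under 0.05), where 24.4% of all genes tested rose and 13.3% fell. The median change was 0.92 on the log2 scale, or 1.89-fold, against 0.07 over all genes tested. All 31 small subunit genes rose, with a median of 0.95, and 46 of 48 large subunit genes rose, with a median of 0.89. The rise was at least 2-fold for 24 genes.

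**Figure D1:**
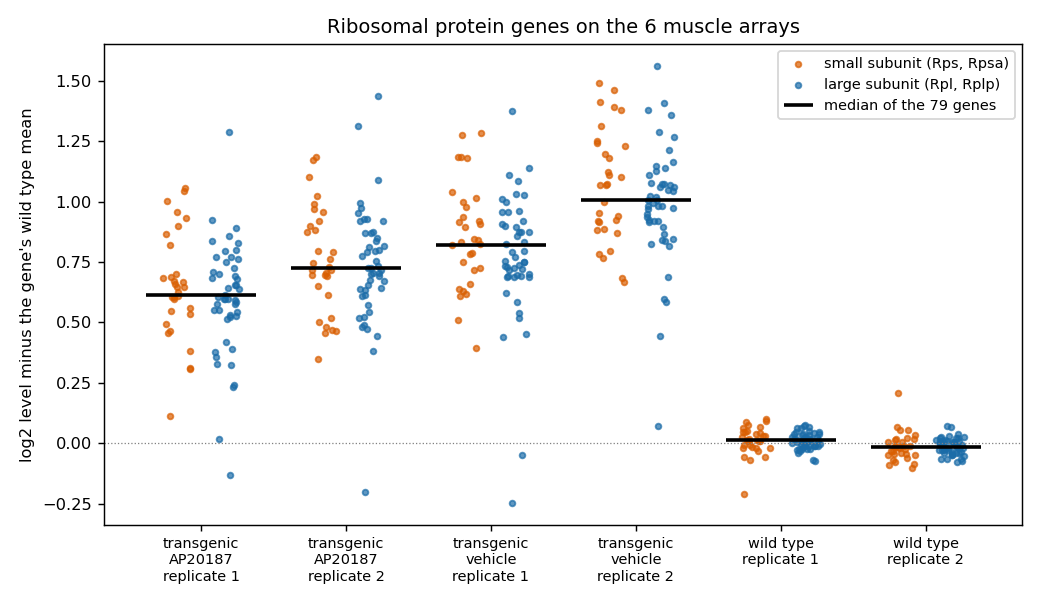
Each point is 1 of 79 ribosomal protein genes on 1 muscle array, as its log2 level minus its mean on the wild type arrays, with small subunit genes left and large subunit genes right; bars are medians. The medians were 0.61 and 0.73 on the AP20187 arrays, 0.82 and 1.00 on the transgenic vehicle arrays, and 0.02 and -0.01 on the wild type arrays, with both drug arrays under both vehicle arrays.

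The largest rise was that of Rpl12, a protein at the base of the stalk, at 1.47 ± 0.11 (SE, adjusted p = 0.00011 by limma) or 2.77-fold. Rps7 had 7.64 and 7.84 log2 units on the vehicle arrays, against 6.48 and 6.44 on the wild type arrays, a rise of 1.28 ± 0.10 (limma adjusted p = 0.00018). Its vehicle values did not overlap its wild type values. Rps21, Rps19 and Rps15a, also of the small subunit, had rises of 1.37, 1.30 and 1.28. Another probe of Rps15a, well above background on 4 of the 6 muscle arrays, gave -0.10 and did not pass.

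Rps6, the small subunit protein that S6 kinases phosphorylate, had 8.37 and 8.58 log2 units in transgenic vehicle muscle, against 7.34 and 7.31 in wild type muscle. Rpsa, which is both a small subunit protein and a laminin receptor, had 9.90 and 10.11, against 8.92 and 8.84, a rise of 1.12 ± 0.11 (limma adjusted p = 0.00034). Among the stalk genes, whose proteins recruit elongation factors, Rplp0 rose by 0.93, Rplp1 by 0.87 and Rplp2 by 0.77.

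The weakest rises that still passed were those of Rpl29 at 0.51 and Rpl23a at 0.52. After quantile normalization these were 0.050 and -0.026 and neither passed, and Rpl29 did not pass without wild type replicate 2 (0.44). Of the 2 genes that did not pass, Rpl21 had a change of 0.10 ± 0.27 with a limma adjusted p of 0.80. Its replicates spread widely, with -2.20 and -1.51 on the vehicle arrays and -1.92 and -1.98 on the wild type arrays.

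Rpl3l was the other gene that did not pass. It had 7.32 and 7.44 log2 units in transgenic vehicle muscle and 7.41 and 7.33 in wild type muscle, a change of 0.01 ± 0.09 (limma adjusted p = 0.93). Its partner Rpl3 had 5.78 and 5.92 in vehicle muscle, against 5.16 and 5.02 in wild type muscle, and rose by 0.76 ± 0.10 (limma adjusted p = 0.0010). Rpl3 values did not overlap between these groups, whereas those of Rpl3l did.

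Both vehicle arrays were above both wild type arrays for 77 of the 79 genes, where this held for 41.4% of all genes tested. Of the 159 probes for these genes that were well above background on all 6 muscle arrays, 156 showed it too, and the 3 others belong to Rpl21 and Rpl3l. Probes of 1 gene differed in size: those of Rpl23 ran from 0.34 to 1.01 and those of Rps3 from 0.08 to 0.98. Ribosomal protein genes have many processed pseudogenes, and whether a probe also reads such copies was not tested.

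**Figure D2:**
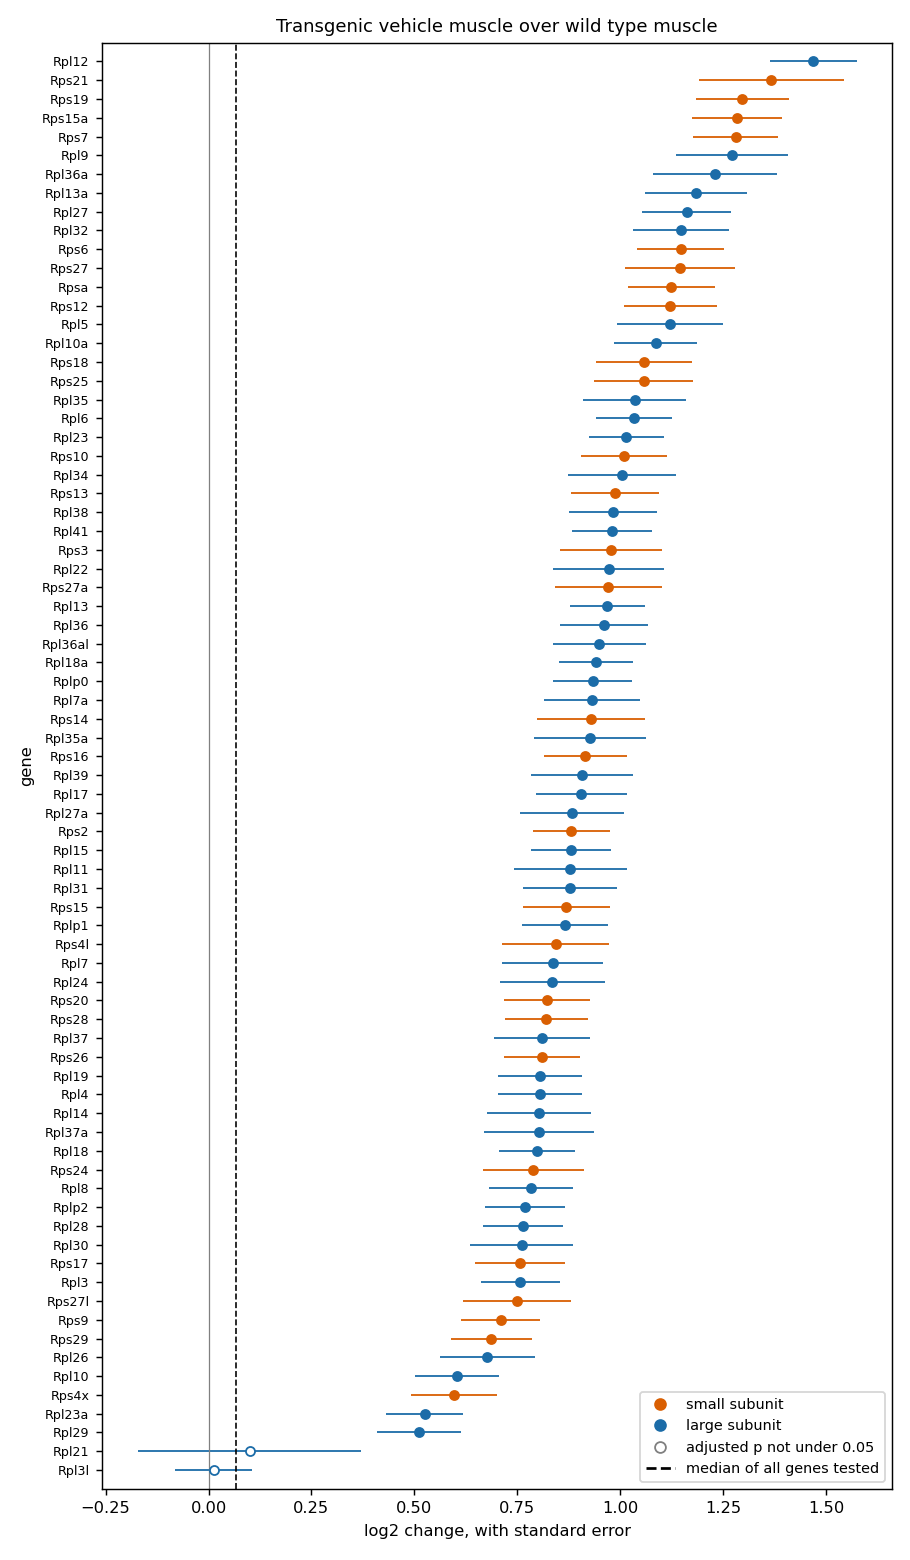
Log2 change of each of 76 ribosomal protein genes in transgenic vehicle muscle over wild type muscle, with its standard error; filled points passed (limma, adjusted p under 0.05) and the dashed line is the median of all genes tested. All points but those of Rpl3l and Rpl21 lie at or above 0.51.

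Other genes of the translation machinery were looked at in the same contrast. Of 77 mitochondrial ribosomal protein genes, 60 rose and 0 fell, with a median of 0.56. A further 23 translation factors and partners were listed as having such tracts, though their own starts were not checked. Of these, 16 rose and 2 fell, and the elongation factor gene Eef1a1 was among those that rose. Ribosome biogenesis factors rose in 16 of 32 cases and fell in 0, with a median of 0.37. The ribosome-associated genes outside the naming rule, among them Rack1, rose in 5 of 5 cases.

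The rise of ribosomal protein genes over wild type kept its direction under each scaling tried, with 69 rising and 1 falling, and a median of 0.40, after quantile normalization. That 1 gene was Rpl3l. The 605 other genes in the brightest 5% of those tested had a median change of 0.25, and 254 of them rose and 58 fell. Proliferation markers fell in 4 of 6 cases in this contrast (median -2.18), though the summed level of the 7 was 3.62 to 3.77 in vehicle muscle and 3.21 to 3.29 in wild type muscle, and their part in the result was not tested. Myoblast and young myotube markers rose in 5 and fell in 2 of 8 cases (median 0.71), with a summed level of 11.75 and 11.77 in vehicle muscle and 11.69 and 11.88 in wild type muscle. Adipocyte markers rose in 2 of 9 cases (median 0.46), with 8.63 and 9.01 against 8.13 and 8.43. The part of both lists was not tested either. Transgene, injection and scan session differ together here and cannot be told apart. In bulk tissue, fewer cells of a type and less RNA per cell cannot be told apart either.

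With AP20187, few ribosomal protein genes changed in transgenic muscle, and those that did were lower. Against vehicle, 11 of 79 genes fell and 0 rose (limma, adjusted p under 0.05), where 11.3% of all genes tested fell and 15.4% rose, so that the share that fell is near the background. The median change was -0.22 (a factor of 1.17), against -0.07 over all genes tested and -0.22 over the brightest 5% of other genes. The small subunit had a median of -0.27 and the large subunit one of -0.20.

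Rps27l, a paralog of Rps27 that p53 is known to induce, had 6.81 and 7.05 log2 units with AP20187, against 7.31 and 7.58 with vehicle. It fell by 0.52 on the log2 scale, with a standard error of 0.13 and a limma adjusted p of 0.024. Rpl11, which binds the p53 regulator MDM2 when ribosome assembly is disturbed, had 8.64 and 8.92 with AP20187 and 9.13 and 9.42 with vehicle, and fell by 0.50 (limma adjusted p = 0.032). In both genes the drug and vehicle values did not overlap.

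Rpl24 fell by 0.46, as did Rps4l, a relative of Rps4x whose probe is named through a RefSeq record of a non-coding transcript. Rps7 had 7.28 and 7.42 with AP20187, against 7.64 and 7.84 with vehicle, and fell by 0.39 (limma adjusted p = 0.028). The other genes that fell were Rpl9, Rpl27a, Rpl27, Rps13, Rps26 and Rpl41, by 0.31 to 0.43. Rps21 had a change as large as these, -0.51, but did not pass (limma adjusted p = 0.065).

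At the other end stood Rpl21 at 0.13 and Rps24 at -0.01, neither of which passed. Rplp0 changed by -0.12, Rplp1 by -0.10, Rplp2 by -0.19 and Rpsa by -0.15, again without passing. Rpl3 had a change of -0.09 and Rpl3l one of -0.18, with adjusted p of 0.49 and 0.19 by limma.

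**Figure D3:**
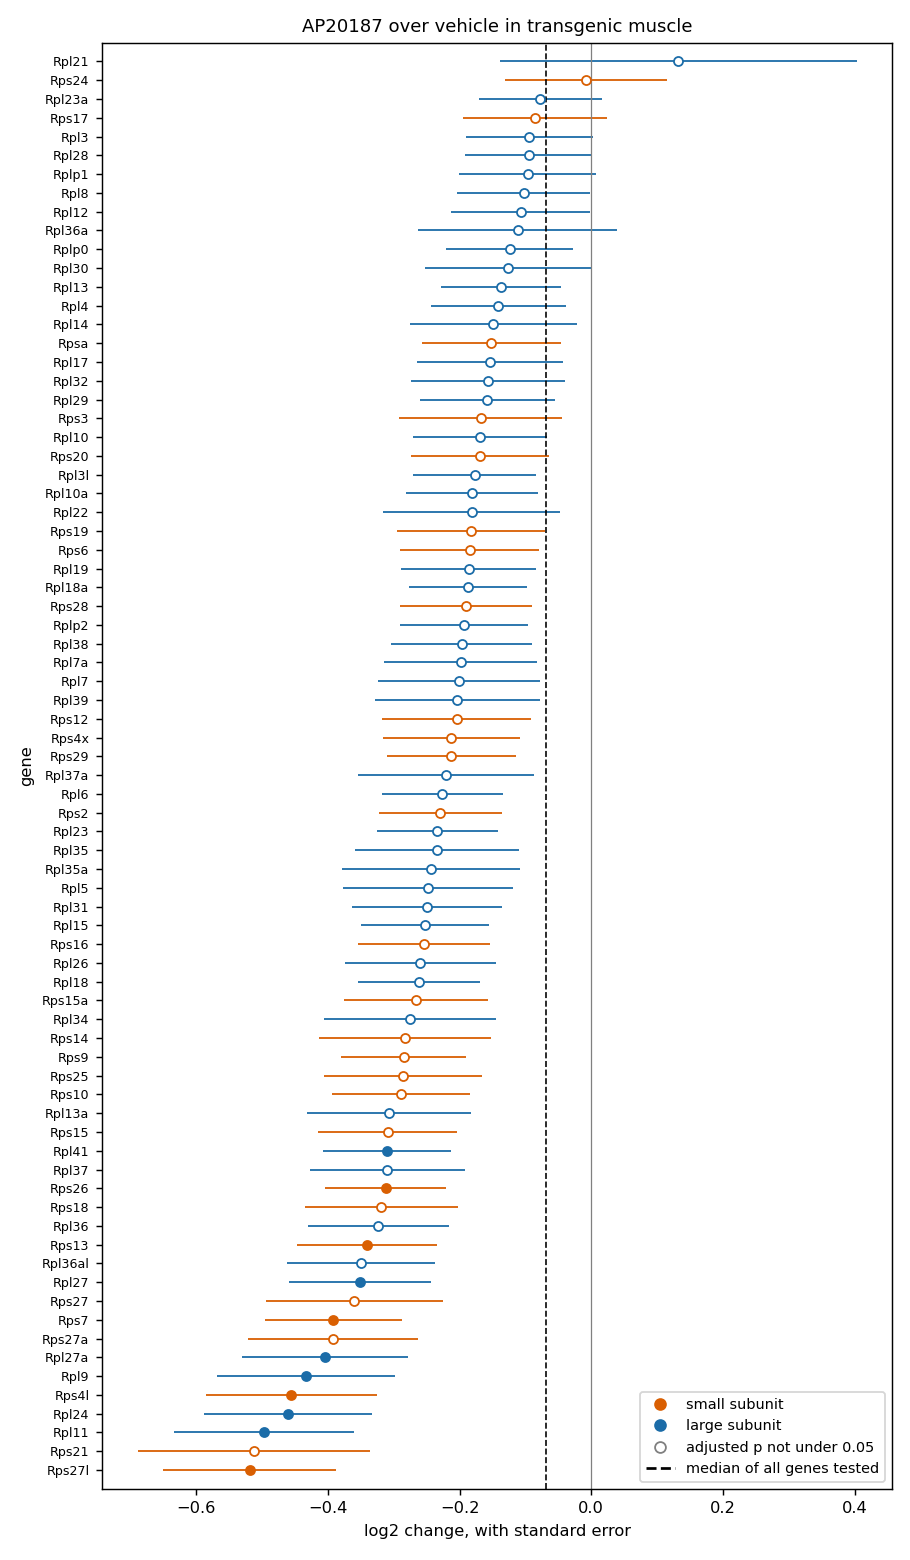
Log2 change of each of 76 ribosomal protein genes with AP20187 over vehicle in transgenic muscle, with its standard error; filled points passed (limma, adjusted p under 0.05). Most points lie left of the dashed line, the median of all genes tested at -0.07, and 11 are filled.

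Both AP20187 arrays were below both vehicle arrays for 55 of the 79 genes, where this held for 36.9% of all genes tested. The genes moved together from array to array: 77 of 79 were higher on vehicle replicate 2 than on vehicle replicate 1, by a median of 0.21, about the size of the drug contrast. Without vehicle replicate 2, 0 genes passed by limma and the median was -0.12, and without AP20187 replicate 1, 1 gene passed. Without AP20187 replicate 2, 6 passed, without vehicle replicate 1, 17 did, and without either wild type array, 4 did. Median scaling moved the median of all genes to 0.22 and that of the ribosomal protein genes to 0.07, which turned the sign. After quantile normalization both medians were near 0, at -0.01 and -0.00, with 1 gene rising and 2 falling. By the headers, the vehicle arrays lay in slide column 1 and the AP20187 arrays in columns 3 and 4. Drug and that position cannot be told apart.

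Other translation genes were looked at in the same contrast. The ribosome-associated genes outside the naming rule fell in 1 of 5 cases, with a median of -0.22, and the translation factors and partners fell in 1 and rose in 1 of 23, with a median of -0.13. Ribosome biogenesis factors rose in 20 of 32 cases and fell in 0, with a median of 0.68, and Myc, a transcription factor that drives this programme, was among those that rose. Among 18 genes that restrain translation or mTORC1, 7 rose and 1 fell. Mitochondrial ribosomal protein genes fell in 15 of 77 cases and rose in 2, with a median of -0.20. Macrophage and leucocyte markers fell in 11 of 14 cases, with a summed level of 5.78 on both AP20187 arrays against 6.28 and 6.29 on the vehicle arrays, and their part in the ribosomal protein values was not tested.

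In C2C12 myotubes no change of these genes with AP20187 was called. By limma, 0 of 56 genes with enough values passed, 3 had an unadjusted p under 0.05, and 0.928% of all genes tested passed. In simulated data this fit called 40% of changes of 1 log2 unit, so smaller changes could well be missed. The muscle drug fit called 62% of them. The median was -0.10, against -0.08 over all genes. The outermost values were 0.30 for Rpl4 and -0.56 for Rps27a, which encodes a ubiquitin fused to a small subunit protein. Rpl41 had a change of -0.49, Rpl11 one of -0.41 and Rplp0 one of -0.30, with adjusted p of 0.15, 0.18 and 0.34 by limma.

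Rpl11 had 8.47 and 8.47 log2 units with AP20187 and 8.78 and 8.97 with vehicle in these cells. Its values in drug-treated cells lay under those in vehicle cells, but it did not pass there. Adipocyte markers rose in 5 of 8 cases in this contrast, with a summed level of 3.59 and 3.99 in drug-treated cells against 1.23 and 1.52 in vehicle cells, and their part was not tested. Drug and vehicle arrays lay in different rows of the slide and cannot be told apart from that position.

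The response in muscle was set against that in C2C12 by the difference of the 2 drug contrasts. Of 58 genes, 1 was called lower and 0 higher by limma, where 3.22% of all genes tested were lower and 9.74% higher. That gene was Rps7, with a difference of -0.56 ± 0.16 (limma adjusted p = 0.043), and it did not pass under 13 of 22 alternatives, which took the value as far as -0.016. Among these were leaving out either wild type array, either AP20187 muscle array, vehicle muscle replicate 2, C2C12 vehicle replicate 2 or either C2C12 AP20187 array. In C2C12 it had 7.25 and 7.35 log2 units with AP20187, against 7.23 and 7.03 with vehicle, whereas in muscle both drug values were below both vehicle values. Rps4l had a difference of -0.82 (limma adjusted p = 0.061) and was well above background on only 1 of the 4 C2C12 arrays.

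Between transgenic vehicle muscle and C2C12 vehicle cells the genes did not move as a block. By limma, 41 of 79 were higher and 9 lower in muscle, where 40.7% and 38.1% of all genes tested were. The median was 0.39, but it was -0.51 after quantile normalization, and wild type muscle gave -0.63 against the same cells, with 2 genes higher and 56 lower. The direction for the family as a whole thus depended on the scaling and on the muscle group. Tissue and scan session also differ together and cannot be told apart.

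Rpl3l and Rpl3 stood far from that median with either muscle group. Rpl3l was well above background on all 6 muscle arrays and on neither C2C12 vehicle array. It was at least 954-fold higher in transgenic vehicle muscle than in C2C12 vehicle cells, against the lowest signal well above background. The limma adjusted p of 8.4e-07 belongs to the values as measured, not to this bound. Since Rpl3l was dim in both C2C12 vehicle arrays and entered the fit through its muscle signal, that p is no separate support. The bounds were 844-fold for AP20187-treated muscle and 946-fold for wild type muscle. In C2C12 cells with AP20187 its replicates disagreed, at -0.22, well above background, and -4.23, not above it.

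Rpl3 went the other way. It had 5.78 and 5.92 log2 units in transgenic vehicle muscle, against 8.14 and 8.38 in C2C12 vehicle cells, a difference of -2.41 ± 0.11 (limma adjusted p = 4.6e-09) or 5.33-fold. The 6 muscle values, from 5.02 to 5.92, lay under the 4 C2C12 values, from 8.06 to 8.38.

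Rpl36al, an intronless copy of Rpl36a, had a difference of 1.16 between muscle and C2C12 and Rpl36a one of -1.03, both called by limma. With wild type muscle Rpl36al had 0.21 and did not pass. Rpl36a had -0.014 after median scaling, and its other probes gave -0.63 and 0.07, so no direction is given for Rpl36a. Rps4l had 0.93 and 0.83 in transgenic vehicle muscle and -2.15 and -2.47 in C2C12 vehicle cells, of which only the higher was well above background, so its difference of 3.19 rests on 1 measured C2C12 value. Rps14 and Rpl32 had differences of 1.12 and 1.1, while Rpl30 and Rps18 had -0.76 and -0.63. Rps14 turned sign after quantile normalization, and Rpl30 and Rps18 did after median scaling, and Rpl32 did with wild type muscle. Rpl21 had -2.66 by its brighter probe and 0.35 by its other probe, so no direction is given.

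The difference between paralogs was then measured inside each array, as the log2 level of a paralog minus that of its partner. A scaling by 1 number per array cancels in it, while quantile normalization does not. The zero of this quantity has no meaning, since 2 probes are compared, and only its difference between samples is read. For Rpl3l minus Rpl3 it was 1.49 and 1.40 in AP20187-treated muscle, 1.54 and 1.52 in vehicle muscle and 2.25 and 2.30 in wild type muscle. In C2C12 it was -8.39 and -12.29 with AP20187 and -11.08 and -11.25 with vehicle.

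Rpl3l was well above background on only 1 of the 4 C2C12 arrays, so the difference is a lower bound. The dim values were then raised to the lowest signal well above background, a choice made after seeing the data. With them, muscle exceeded C2C12 by at least 11.8 log2 units. The mean over the 6 muscle arrays was 1.75 ± 0.41 (SD). Those arrays differ in genotype, treatment and scan session, from 1.40 in AP20187-treated to 2.30 in wild type muscle, so this SD is no replicate spread. The exact two-sided permutation test gave p = 0.0095 on the raised values as on those measured, where it was 0.038 adjusted over 4 pairs. This p is the smallest that 6 and 4 arrays allow. Since Rpl3l was kept for its muscle signal and was dim on most C2C12 arrays, detection set that outcome, and the p is no separate support. The test also exchanges arrays across genotype, treatment and scan session. Within muscle, the 4 transgenic arrays lay below both wild type arrays.

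Rps4l minus Rps4x was at least 3.12 higher in muscle, by the same bound and again with 1 of 4 C2C12 arrays well above background. Here too detection set the separation, and the test is no separate support. The exact permutation p was 0.024, the smallest that 6 and 3 arrays allow, or 0.048 adjusted. It became 0.071 without any 1 of those 3 C2C12 arrays (vehicle replicate 1 or 2, or AP20187 replicate 1). That is the smallest that 6 and 2 arrays allow, so the lost call follows from the number of arrays. The difference as measured then ran from 3.03 to 3.41. Rpl36al minus Rpl36a was 2.21 higher, with no overlap, at p = 0.071 by the exact permutation test, the smallest that 6 and 2 arrays allow. Its size depends on the Rpl36a probe: the one used gave -1.03 in transgenic vehicle muscle over C2C12 vehicle cells, and the others -0.63 and 0.07. Rps27l minus Rps27 differed by -0.09 (exact permutation p = 0.64), within the spread of the arrays. The pairs of Rpl10l and Rpl39l were not tested, since these paralogs were above background on 0 and 1 of the 10 arrays.

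**Figure D4:**
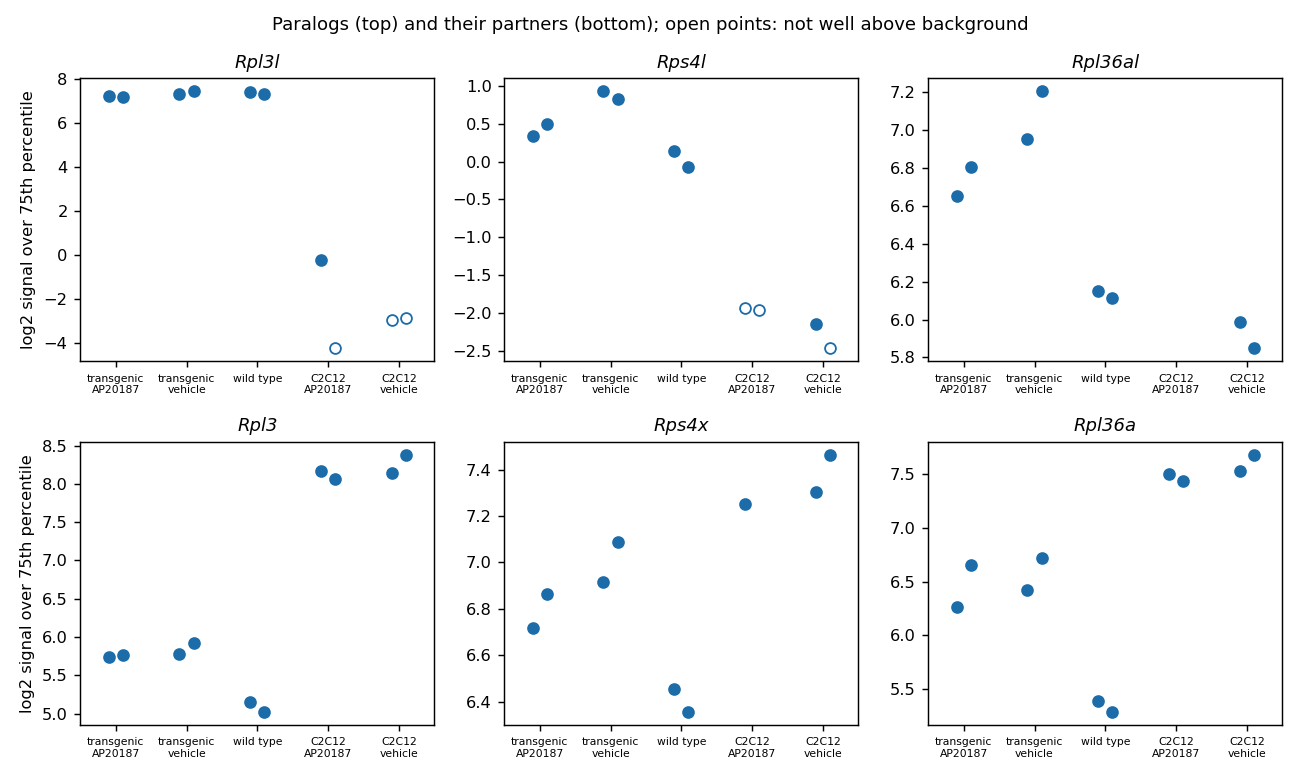
Log2 level over the 75th percentile on each array in the 5 groups for 3 paralogs (top) and their partners (bottom); each panel has its own axis, and open points were not well above background. Rpl3l is near 7 on all 6 muscle arrays and under 0 on the 4 C2C12 arrays, and Rpl3 is higher on every C2C12 array than on any muscle array.

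The medians were set out under 5 array scalings for 3 contrasts. All of these but quantile normalization subtract 1 number per array, which leaves the gap between ribosomal protein genes and all genes nearly unchanged. Only quantile normalization could therefore move that gap. In transgenic vehicle over wild type muscle the ribosomal protein median exceeded that of all genes by 0.85, and by 0.39 after quantile normalization. For AP20187 over vehicle in muscle it differed from that of all genes by -0.15, and by 0.0046 after quantile normalization. For muscle over C2C12 these gaps were 0.33 and -0.56.

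**Figure D5:**
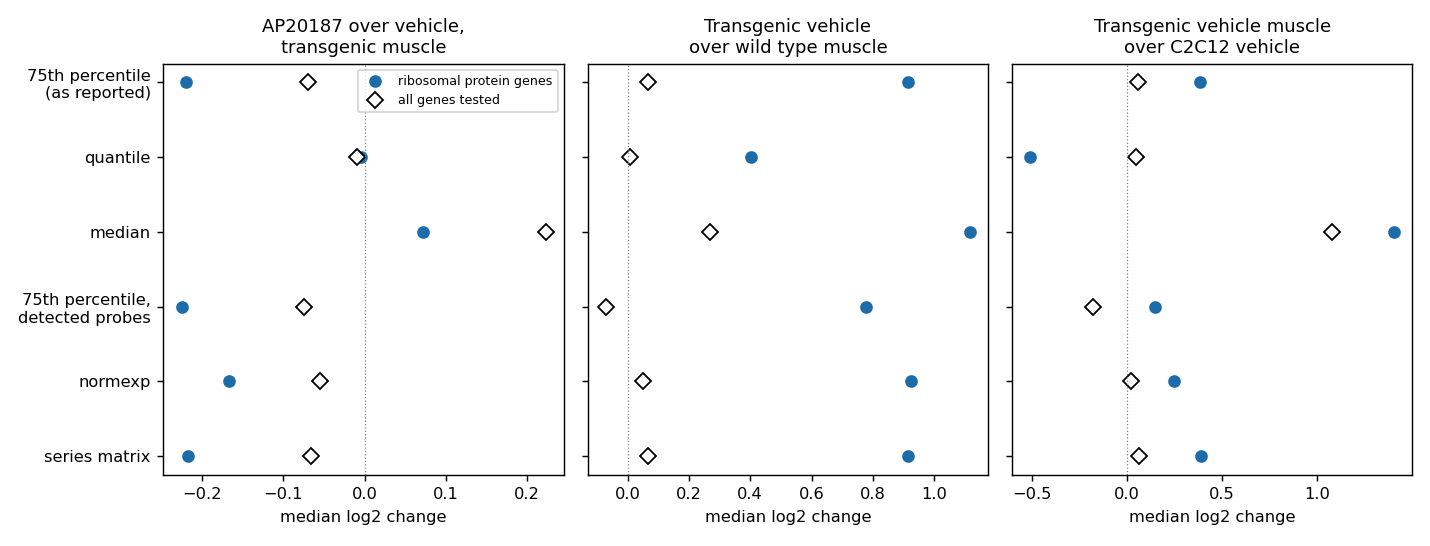
Median log2 change of the ribosomal protein genes (filled) and of all genes tested (open) under 6 ways of scaling, background correction or sourcing the values, in 3 contrasts; each panel has its own axis. The filled points stay right of the open ones in the middle panel, and change sides in the right one.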

How the data were processed

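Per the file headers, the deposited Cy3 intensities were background-corrected by Agilent's Feature Extraction software (10.7.1.1). The deposited series matrix holds log2 values whose centring is not stated; its column medians run from -0.58 to 0.80. Control spots and spots with an outlier flag were left out. The log2 of the processed intensity minus each array's 75th percentile was used, probes were named through RefSeq, and genes entered a fit if some group had their brightest probe marked well above background in each of its replicates. Contrasts were fitted with limma 3.58.1 in R 4.3.3 (trend, Benjamini-Hochberg over all genes, threshold 0.05), and checked on simulated data. Paralog differences were tested exactly in scipy 1.17.1. Members and gene lists were chosen with earlier results of these data known. Named are, per contrast, the 5 largest rises, the 5 largest falls and the 5 smallest p, with the paralog pairs, the stalk genes and Rpsa; Rps6 and the other genes that passed were added after their values were seen. Normexp used median signals, in place of the planned mean signals. Alternatives covered scaling, background, filters, probes, flags, blocks and left-out arrays. The number of arrays limits the precision. Some items that this rule names are not reported here, and they are left out of the plots that label genes.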

Additional observations from a re-analysis of the deposited data

Results flagged for a closer look

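Rps7 was the 1 ribosomal protein gene whose AP20187 change differed between muscle and C2C12 by a test of the difference itself. Its change in muscle minus its change in C2C12 was -0.56 on the log2 scale (limma adjusted p = 0.043). It passed under 9 of 22 alternatives, with adjusted p from 0.015 to 0.96 by limma. Rps7 was 1 call among 58 ribosomal protein genes, where 3.22% of all genes tested were called lower and 9.74% higher. A lone call at that background does not set these genes apart from the rest, and it is weak ground for singling out Rps7.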

How the results depend on the processing

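With AP20187 in muscle, the number of ribosomal protein genes that passed was 3 after quantile normalization (median -0.0048), 1 after median scaling (median 0.073, the sign turned), 22 with the percentile over detected probes, 6 with normexp, 0 with no filter, 7 with the mean over probes, 0 with the series matrix (limma, 31 at an unadjusted p under 0.05 as reported), 5 of 28 among genes with a single probe and 4 in the transgenic arrays alone, which share 1 scan session. Over vehicle and wild type muscle the count stayed within 1.5 times, apart from 27 of 28 single-probe genes, and the median was 0.40, 1.12 and 0.78 after quantile, median and detected-probe scaling. In C2C12 the median with AP20187 was 0.081, -0.35 and 0.0021 under these scalings and 0.094 with the percentile over unflagged probes, and normexp called 2 genes. The difference of the drug changes had 0, 2 and 3 calls under the same scalings, 2 with normexp, 0 with no filter and 5 over unflagged probes. Its median was 0.42 after median scaling, -0.24 with detected probes, -0.013 with normexp and -0.32 over unflagged probes. Muscle over C2C12 gave a median of -0.51 after quantile normalization, 1.40 after median scaling (76 calls), 0.15 with detected probes, 0.24 with normexp, 0.077 with the mean over probes, 0.21 where a probe with a value on every array was preferred and -0.63 for wild type muscle, with 17 calls among single-probe genes. The unflagged percentile and the complete-probe preference were chosen after seeing the data. In every case the cause was not tested.

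With the replicate number as a block, 23 genes passed for AP20187 in muscle and 2 in C2C12. Same-numbered arrays deviated together only weakly (correlations of 0.15 in transgenic muscle and 0.06 in C2C12), and with 2 numbers this sets no pairing. Leaving out 1 array at a time gave 0 to 17 calls for AP20187 in muscle (median -0.33 to -0.12), 75 to 77 for vehicle over wild type (0.82 to 1.01), 0 to 1 in C2C12 (-0.20 to -0.0037), 0 to 2 for the difference (-0.25 to -0.023) and 42 to 50 for muscle over C2C12 (0.21 to 0.47). A lone array is then assumed to vary like the others. The paralog differences ran from 11.99 to 13.29 for Rpl3l, 2.15 to 2.28 for Rpl36al, -0.17 to -0.04 for Rps27l and 3.03 to 3.41 for Rps4l. Without any of 3 C2C12 arrays the exact permutation p for Rps4l was 0.071, the smallest that the arrays left allow. Rpl36al passed with flags kept (2.21), and Rps27l was 0.18 after quantile normalization.

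Some single genes turned sign. In vehicle over wild type muscle these were Rps15a with complete probes (-0.10), and Rpl3l (-0.45) and Rpl23a (-0.026) after quantile normalization. In muscle over C2C12, quantile normalization gave -0.28 for Rps14, -0.11 for Rps27, -1.15 for Rpl10, -0.43 for Rplp0, -0.38 for Rplp2 and -0.052 for Rpsa. Median scaling gave 0.26 for Rpl30, 0.39 for Rps18, 0.64 for Rps4x, 0.64 for Rpl39 and 0.79 for Rplp1. Wild type muscle gave -0.046 for Rpl32, -0.44 for Rps27, -0.21 for Rps27l, -0.52 for Rpl10, -0.15 for Rplp0, -0.18 for Rplp2 and -0.16 for Rpsa, and the mean over probes gave -0.55 for Rpsa. The Rpl3l difference of drug changes was 1.15 without C2C12 AP20187 replicate 1 and -2.86 without replicate 2. No spot was saturated, so leaving such spots out changes nothing, and no session block could be fitted, since no group spans 2 sessions.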
